A study of Mus musculus with 32 samples.

Results

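The diet comparison under low-dose disulfiram (DSF) sets the livers of 4 male C57BL/6J mice fed a high-fat diet with DSF (HFDL) against those of 5 male C57BL/6J mice fed a standard diet with DSF (SDL). These 9 mice, of 30 in the series, were chosen by diet and dose. Another HFDL mouse, replicate 10, was left out because only 23.7% of its probes had a detection p-value under 0.05. Both groups were fed for 40 weeks, to an age of 56 weeks, on diets meant to supply 100 mg/kg of DSF a day. HFDL food carried 61% of its energy as fat, 16% as carbohydrate and 23% as protein, with 2.33 g of DSF per kg of food. SDL food carried 17% of its energy as fat, 64% as carbohydrate and 19% as protein, with 1 g of DSF per kg of food. The effect of the fat and that of the higher DSF content of the HFDL food cannot be told apart, since no group ate one without the other at this dose. The same diets were compared without DSF (HFD against SD, 5 mice each) and with DSF at 200 mg/kg a day (HFDH against SDH, 4 mice each after low-signal arrays were left out), and neither comparison shares a mouse with HFDL-SDL. The comparison asks which liver transcripts differ between the diets when both carry the low dose. Mice shared cages, which the labels do not name, so p-values measure the spread between the mice as deposited.

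The liver takes up dietary fat and sugar, makes and exports lipoproteins, clears drugs through cytochromes P450 (Cyp genes) and glutathione S-transferases, and makes the acute-phase proteins that rise in the blood during inflammation. High-fat feeding is known to lower the genes of fatty acid synthesis in the mouse liver and to raise certain cytochromes. DSF is an inhibitor of aldehyde dehydrogenases that has long been used against alcohol dependence, and its breakdown products react with thiols such as glutathione.

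Transcripts were measured on Illumina bead arrays, 1 probe standing for each of 10032 genes (or probes without a gene symbol) that were above background in at least 5 mice. Values are normalised log2 signals, so differences are log2 fold changes, and they compare mice for 1 probe, never 1 probe with another. On the 9 arrays, 44.2% to 46.5% of probes were above background in HFDL and 46.3% to 48.9% in SDL. The standard deviation of log2 intensity was 1.80 to 1.87 in HFDL and 1.85 to 1.97 in SDL, before each array was scaled to the same spread. Of 10 hepatocyte markers, 9 were above background in both groups, although the albumin probe was so in only 1 of 4 HFDL mice and 2 of 5 SDL mice. Of 17 pancreatic acinar transcripts, 3 were above background in any HFDL mouse and 12 in any SDL mouse. Their summed signal was 1405 to 1626 in HFDL and 1257 to 2092 in SDL. None of the 7 that could be tested passed the test given below, beside 3.01% of all genes. The first principal component of the 9 mice, with 33.5% of the variance, placed HFDL replicates 7, 8 and 9 at 17.8 to 21.6 and all SDL mice between -17.4 and -6.79. HFDL replicate 11 lay at -2.35, nearer to the SDL mice than to the other HFDL mice. On the second component (23.97%), HFDL replicate 11 at 23.7 and SDL replicate 11 at 19.3 stood apart from the other mice, which lay at 1.23 or lower. The count of calls and those of 4 gene lists are also given without both mice numbered 11.

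**Figure D1:**
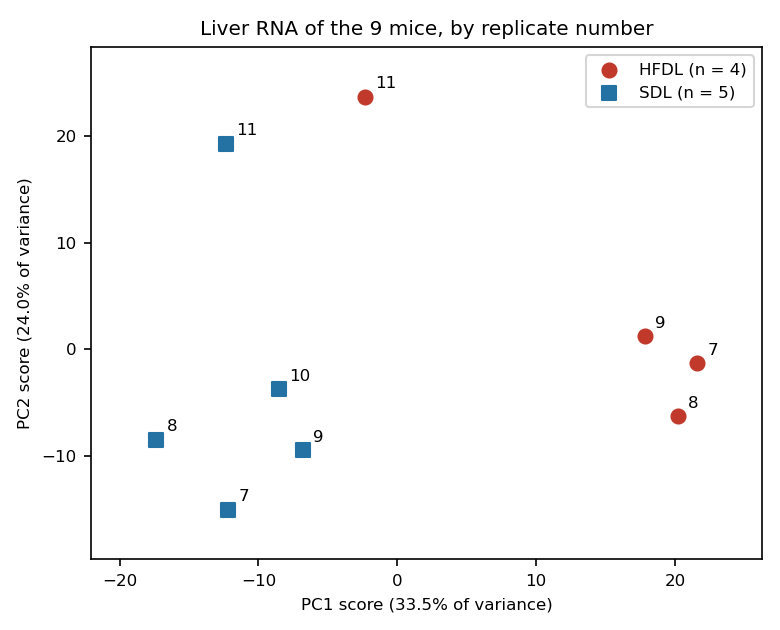
Scores of the 4 HFDL mice (red circles) and 5 SDL mice (blue squares) on the first 2 principal components of 10032 genes, numbered by replicate. HFDL replicates 7, 8 and 9 lie far right of the SDL mice, and both mice numbered 11 lie at the top.

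In HFDL-SDL, 302 of 10032 genes (3.01%) differed between HFDL and SDL livers, 89 of them higher in HFDL (0.887%) and 213 lower (2.12%), by limma at a Benjamini-Hochberg adjusted p under 0.05. At an unadjusted p under 0.05 there were 2010 genes. The median change of the calls was 0.64 among the higher and -0.60 among the lower on the log2 scale, and 16 rose and 21 fell by at least 1 unit. All HFDL mice lay above all SDL mice for 68 of the 89 higher genes, and below them for 169 of the 213 lower genes. Over all genes tested, 285 (2.84%) had all HFDL mice above all SDL mice and 579 (5.77%) below. Higher calls sat at strong signals, with a median SDL signal of 10.6, against 8.43 for lower calls and 7.88 for all genes. Of the 2508 genes with the strongest SDL signal, 59 were higher and 39 lower, and of the next 2508 genes 16 were higher and 96 lower. The count depended on the mice and the scaling. Leaving out 1 mouse gave 68 to 672 calls, and leaving out both mice numbered 11 gave 622 (212 higher and 410 lower). With the low-signal HFDL mouse and the other low-signal mice included, no gene passed (561 at an unadjusted p under 0.05). The share of higher calls, 29.5%, fell to 2.95% (46 higher and 1514 lower) when arrays were centred on their medians without scaling, a setting that placed the median of all genes at -0.17, against -0.03 with scaling. In 177 of the 302 calls HFDL replicate 11 was the HFDL mouse nearest to SDL, and in 118 SDL replicate 11 was the SDL mouse nearest to HFDL.

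**Figure D2:**
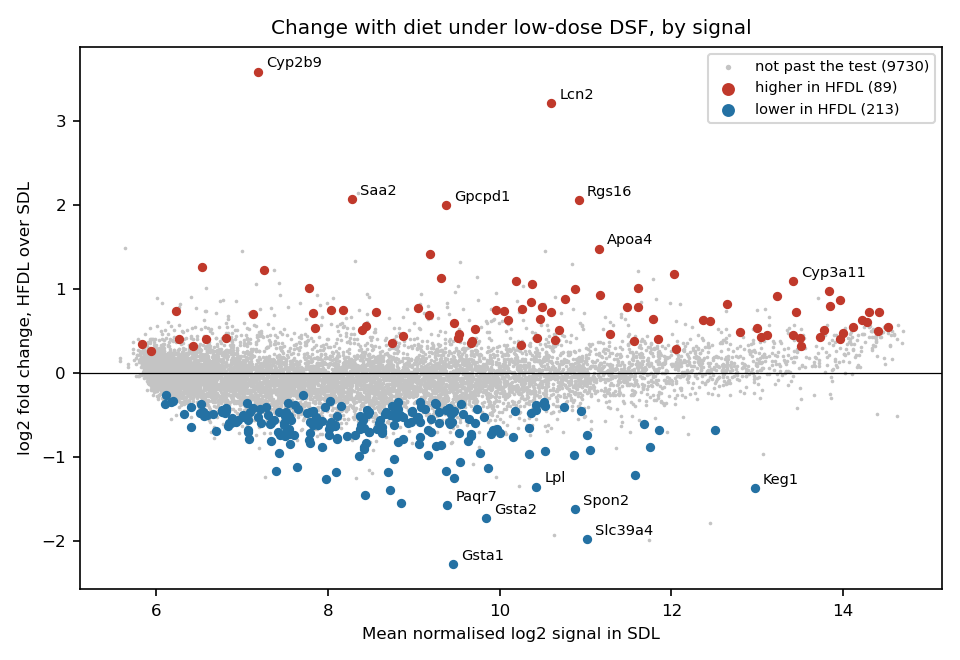
Log2 fold change of HFDL over SDL (vertical) for 10032 genes against their mean normalised log2 signal in SDL (horizontal). The 89 higher genes (red) lie mostly at the stronger signals, while the 213 lower genes (blue) lie mostly at middle signals.

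The largest rises joined a drug-metabolising cytochrome, acute-phase proteins and genes known to follow glucose and feeding. Cyp2b9, a cytochrome that is predominant in female mouse liver, had signals of 12.44, 11.13, 10.27 and 9.24 in HFDL livers, against 6.82, 8.52, 8.00, 6.26 and 6.32 in SDL livers. The lowest HFDL mouse was above the highest SDL mouse, and the change was 3.58 on the log2 scale (SE 0.74, adjusted p = 0.0115 by limma). Rgs16, a regulator of G protein signalling that responds to feeding state, had 13.38, 13.35, 13.52 and 11.66 in HFDL and 10.83, 10.999, 11.32, 11.27 and 10.18 in SDL. The groups did not overlap, replicate 11 being the lowest of each, and the change was 2.05 (SE 0.38, adjusted p = 0.00652 by limma). Gpcpd1, which splits glycerophosphocholine, had 11.76, 11.38, 11.70 and 10.61 in HFDL and 9.21, 9.08, 8.95, 9.66 and 9.95 in SDL. The change was 2.00 (SE 0.35, adjusted p = 0.00614 by limma), and the gene's other probe gave 1.82. Txnip, the thioredoxin-interacting protein that glucose induces, rose by 1.42 (adjusted p = 0.0115 by limma), and Slc37a1, an endoplasmic reticulum carrier of glucose 6-phosphate, rose by 1.26 (adjusted p = 0.0492 by limma). Slc37a1 was almost level among the HFDL mice, at 7.76 to 7.84, and spread from 6.05 to 7.23 among the SDL mice. Of 21 other settings, 11 lost the call of Slc37a1 and 2 that of Txnip.

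The histone gene H3f3b rose by 1.18, the transcription elongation factor Ell by 1.09, the endosomal sorting genes Tom1l2 and Snx10 by 1.23 and 1.06, and the lysosomal protease Ctsl by 1.01. The calls of Tom1l2 and Snx10 were each lost in 13 of 21 other settings. For Tom1l2 these included the setting without both mice numbered 11 (1.28, adjusted p = 0.0583 by limma). For Ell the highest SDL mouse, replicate 11 at 11.07, stood close to the HFDL mice at 11.1 to 11.5, whereas the other SDL mice lay between 9.80 and 10.1. The cold-inducible RNA-binding gene Rbm3 rose by 1.13 (adjusted p = 0.0213 by limma) on its brighter probe, but its other probe gave -0.02, so the gene has no single direction here.

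Lower in HFDL were glutathione transferases, a zinc importer and genes of lipid handling and taurine synthesis. Slc39a4, the zinc importer ZIP4, had signals of 10.21, 8.55, 8.89 and 8.52 in HFDL and 10.98, 11.14, 11.45, 10.75 and 10.76 in SDL. The groups did not overlap, with HFDL replicate 7 nearest to SDL. The change was -1.97 (SE 0.44, adjusted p = 0.0155 by limma) and -0.50 on the gene's other probe. Slc39a14, a carrier of zinc and iron of the same family, went the other way and rose by 0.70 (adjusted p = 0.0498 by limma). The call of Slc39a14 was lost in 11 of 21 other settings, and that of Slc39a4 in 3. Sorbs2, a cytoskeletal adaptor, had 6.55, 6.49, 6.63 and 7.22 in HFDL and 8.03, 8.16, 7.78, 7.97 and 7.96 in SDL, a fall of 1.26 (SE 0.18, adjusted p = 0.00126 by limma). Both groups were tight apart from HFDL replicate 11. Paqr7, a membrane progestin receptor, fell by 1.57 (SE 0.28, adjusted p = 0.00621 by limma), although its HFDL range of 7.12 to 8.86 just met the SDL range of 8.85 to 9.87. Sort1, the sorting receptor sortilin that handles lipoproteins, fell by 1.25 (adjusted p = 0.00492 by limma) on the brightest of its 4 probes, while the smallest change among its probes was -0.003. Csad, an enzyme of taurine synthesis, fell by 1.21 and the extracellular matrix protein gene Spon2 by 1.62. Spon2 was at 8.84 to 9.48 in HFDL and at 11.003 to 11.33 in SDL except for SDL replicate 11 at 9.64. Of 21 other settings, 12 lost the call of Spon2 and 5 that of Csad. The kinases Dclk3 and Dapk2 fell by 1.45 and 1.13, Cdc42ep5, an effector of the GTPase Cdc42, by 1.12, and Epb41l1, a membrane skeleton gene above background in only 2 of the 4 HFDL mice, by 1.16. For Dapk2, HFDL replicate 11 at 9.75 lay within the SDL range of 9.30 to 10.1, and the other HFDL mice lay between 8.31 and 8.55. The calls of Dclk3 and Cdc42ep5 were each lost in 9 of 21 other settings, that of Epb41l1 in 8 and that of Dapk2 in 6.

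**Figure D3:**
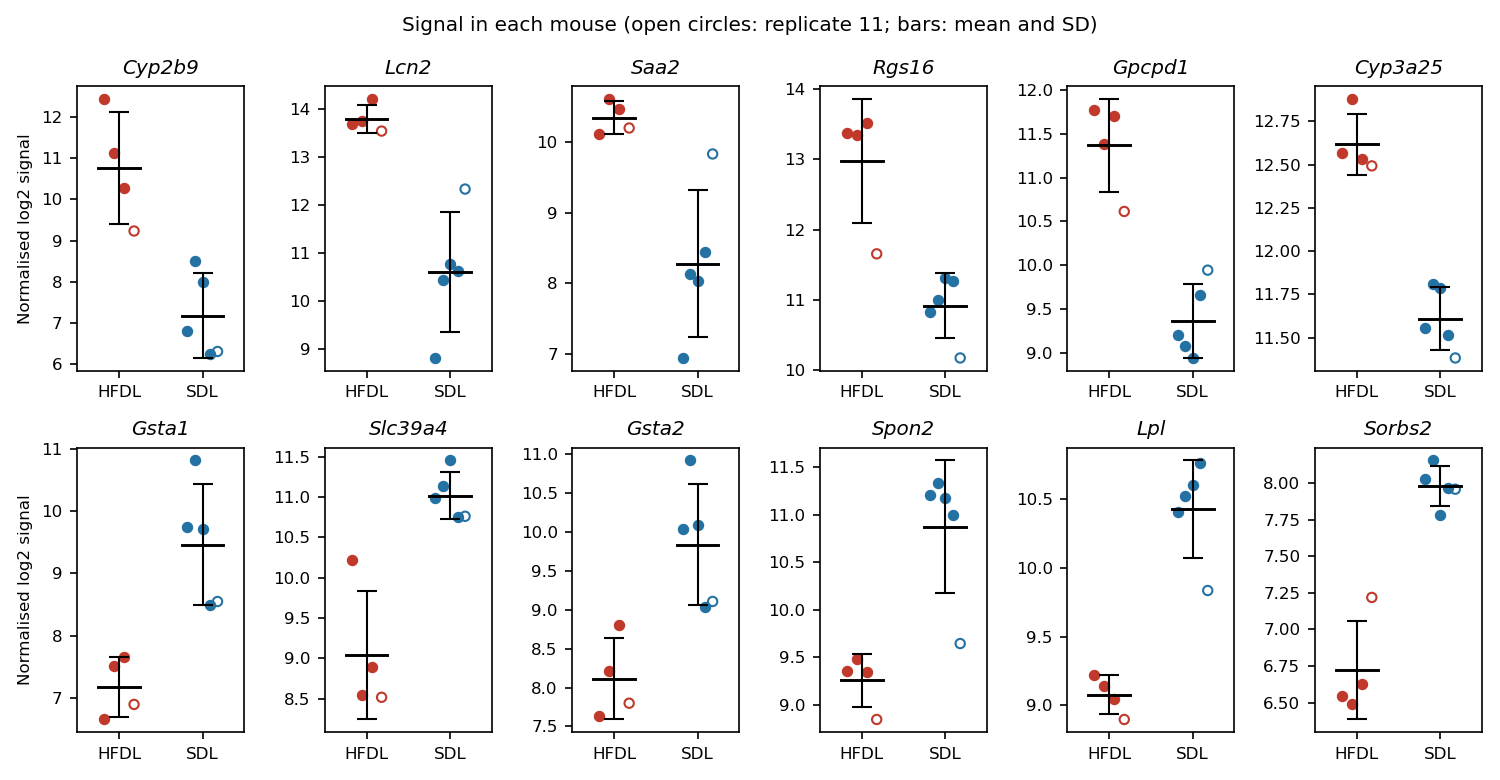
Normalised log2 signal (vertical; each panel has its own scale) of 12 genes in each HFDL mouse (red) and SDL mouse (blue), with the mean and SD in black and replicate 11 of each group as an open circle. In all 12 panels the HFDL and SDL mice do not overlap, and in several replicate 11 of one group lies nearest to the other group.

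Of 29 tested acute-phase genes, 6 rose and none fell, against 0.887% higher and 2.12% lower of all genes. All 29 had positive changes, with a median of 0.54, against -0.03 for all genes. The list held the serum amyloids, carriers and protease inhibitors that the liver secretes in inflammation, with the receptors and the transcription factor that drive them. Lcn2, the siderophore-binding protein lipocalin 2, had signals of 13.70, 13.75, 14.22 and 13.55 in HFDL and 8.81, 10.44, 10.77, 10.63 and 12.34 in SDL. All HFDL mice were high and close together, while the SDL mice ranged widely, and the change was 3.21 (SE 0.83, adjusted p = 0.0338 by limma). Saa2, a serum amyloid, had 10.11, 10.61, 10.47 and 10.20 in HFDL and 6.94, 8.14, 8.04, 8.44 and 9.83 in SDL, a change of 2.07 (SE 0.57, adjusted p = 0.0454 by limma). In both genes SDL replicate 11 was the SDL mouse nearest to HFDL. Of 21 other settings, 11 lost the call of Lcn2 and 12 that of Saa2, both under quantile normalization among others. The probe of Saa2 may also bind the near-identical Saa1. The protease inhibitor Serpina3n rose by 0.98 and haptoglobin, Hp, by 0.73. The other members past the test, named after their values were seen, were the orosomucoid Orm1 at 0.72 and the fibrinogen chain Fgg at 0.72. In 8 of the 29 genes all HFDL mice lay above all SDL mice, against 2.84% of all genes. The number past the test was 11 without both mice numbered 11, 12 without SDL replicate 11, 1 under quantile normalization, 1 without SDL replicate 10 or HFDL replicate 8, and 0 without SDL replicate 7, SDL replicate 8, HFDL replicate 7 or HFDL replicate 9. The median stayed between 0.44 and 0.66 when 1 mouse was left out and was 0.29 under median centring, where 3 genes of the list rose and 1 fell. With the main scaling all 9 tested hepatocyte markers also had positive changes, with a median of 0.43. Their sums were 148501 to 221827 in HFDL and 123356 to 175622 in SDL. Under quantile normalization the median was 0.04 for these markers and 0.45 for the acute-phase list. Under median centring it was -0.01 for the markers and 0.29 for the list. The part of the hepatocyte markers in the acute-phase values was not tested.

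Lcn2 is also a neutrophil gene, and in whole-liver RNA fewer cells of a type and less RNA per cell cannot be told apart. None of 6 tested neutrophil markers passed the test, beside 3.01% of all genes. Marker lists this short can hold no call at that share. All 6 changes were positive, with a median of 0.32, and the summed marker signal was 1454 to 2323 in HFDL and 781 to 2635 in SDL. None of 11 tested Kupffer cell and macrophage markers passed, with a median of 0.20 and sums of 4917 to 6512 in HFDL and 3963 to 5191 in SDL, the marker Cd5l being above background in no mouse. Of the 11 changes 9 were positive and 2 negative, and the nearest to the test was a negative one, Cd9 at -0.63 (adjusted p = 0.0785 by limma). C1qb followed at 0.66 (adjusted p = 0.226 by limma). Sums of the sinusoidal endothelial markers were 8077 to 10535 in HFDL and 6866 to 8426 in SDL. Of 9 tested, 5 had positive and 4 negative changes, with a median of 0.12, and none passed. The nearest to the test were the hyaluronan receptor Lyve1, which was at 8.30 to 8.97 in HFDL and 6.98 to 8.11 in SDL (1.23, adjusted p = 0.0773 by limma), and Pecam1, which differed by 0.44 (adjusted p = 0.0631 by limma). Of 9 lymphocyte markers 6 were above background in each group, and Cd8a, Ms4a1 and Gzmb in no mouse. The 5 tested had positive changes, with a median of 0.32, and none passed. The part of these cell types in the acute-phase values was not tested.

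The promoters of Lcn2 and Saa2 are shown because these genes had the largest changes past the test in the list. Each window runs from 250 bases before to 50 after the RefSeq start (GRCm38.p6), as chr2:32387690-32387989 on the minus strand for Lcn2 and chr7:46751583-46751882 on the plus strand for Saa2. Capitals mark the motif TTGCNNAA, the core that C/EBP factors bind, searched on both strands. It occurs 1 time in each window and in 10.8% of 32851 RefSeq promoter windows of this length.
Lcn2: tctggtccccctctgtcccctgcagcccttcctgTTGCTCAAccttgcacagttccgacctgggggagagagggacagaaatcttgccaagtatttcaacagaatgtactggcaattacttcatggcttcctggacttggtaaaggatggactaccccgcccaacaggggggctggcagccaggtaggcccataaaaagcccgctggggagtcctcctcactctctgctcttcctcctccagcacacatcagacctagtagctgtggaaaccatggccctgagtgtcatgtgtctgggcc
Saa2: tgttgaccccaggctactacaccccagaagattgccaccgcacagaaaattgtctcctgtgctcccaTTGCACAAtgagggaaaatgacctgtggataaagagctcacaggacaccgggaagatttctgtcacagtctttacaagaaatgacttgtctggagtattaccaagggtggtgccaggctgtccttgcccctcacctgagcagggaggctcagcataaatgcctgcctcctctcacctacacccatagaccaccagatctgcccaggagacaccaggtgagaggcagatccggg

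Among the cytochromes, members of the Cyp3a and Cyp2d families rose. Cyp3a25, a steroid and drug hydroxylase, had signals of 12.57, 12.88, 12.53 and 12.49 in HFDL and 11.56, 11.81, 11.78, 11.52 and 11.38 in SDL. The groups were far apart for their spread, and the change was 1.01 (SE 0.15, adjusted p = 0.00126 by limma). Cyp3a11, the main mouse Cyp3a and a target of the xenobiotic receptor PXR, was at 14.30 to 14.65 in HFDL and 12.99 to 13.82 in SDL, a rise of 1.09 (SE 0.19, adjusted p = 0.00621 by limma). These were 2 of 6 tested genes of the PXR list, and none fell, against 0.887% higher and 2.12% lower of all genes. Cyp2d26 rose by 0.53 (adjusted p = 0.0145 by limma), and its other probes gave up to 0.73. The call of Cyp3a11 was lost under quantile normalization, and that of Cyp2d26 under quantile normalization and under median centring. Cyp3a25 kept its call in both settings. Of 6 tested Cyp2b genes and other targets of the receptor CAR, Cyp2b9 alone passed. Its near-identical neighbour Cyp2b13 was above background in 3 of 4 HFDL mice and no SDL mouse. Its signal was 9.18 in HFDL replicate 7 and 6.09 to 6.66 in the other HFDL mice, at least 2.10-fold higher than in SDL when SDL signals were raised to the lowest detected signal of each array (adjusted p = 0.121 by limma). None of 8 Cyp2c genes passed, and the nearest were Cyp2c70 at 0.54 (adjusted p = 0.058 by limma) and Cyp2c55 at -0.90 (adjusted p = 0.0916 by limma). None of 11 Cyp4a and Cyp4f genes passed either. Cyp4a12a, a fatty acid hydroxylase of male liver, was at 8.92, 11.51, 11.03 and 11.19 in HFDL and at 11.6 to 12.9 in SDL, a difference of -1.78 (SE 0.51, adjusted p = 0.0521 by limma). Its close copy Cyp4a12b differed by -1.94 (adjusted p = 0.111 by limma), and the probes of such copies may bind both transcripts.

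Of 37 tested glutathione transferases and targets of the oxidative stress regulator NRF2, 3 fell and none rose, with a median of -0.11. Of all genes, 2.12% fell and 0.887% rose. Gsta1 had signals of 6.65, 7.51, 7.66 and 6.89 in HFDL and 9.74, 10.81, 9.71, 8.49 and 8.55 in SDL. The groups did not overlap, and SDL replicates 10 and 11 were the lowest of theirs. The change was -2.28 (SE 0.56, adjusted p = 0.0249 by limma), the largest fall past the test in HFDL-SDL. Gsta2 had 7.63, 8.21, 8.81 and 7.80 in HFDL and 10.03, 10.92, 10.09, 9.04 and 9.11 in SDL, a change of -1.73 (SE 0.44, adjusted p = 0.0312 by limma), with the mice in nearly the same order. Gstp2, a transferase of the pi class, had 7.42, 6.84, 7.79 and 7.14 in HFDL and 8.96, 7.66, 9.39, 8.94 and 9.30 in SDL (-1.55, SE 0.40, adjusted p = 0.0354 by limma). Its groups overlapped through SDL replicate 8 alone, and its call was lost without both mice numbered 11 (-1.38, adjusted p = 0.0772 by limma). No member fell past the test without SDL replicate 7, HFDL replicate 7 or HFDL replicate 8. Without both mice numbered 11, 2 fell and 4 rose, and under median centring 10 fell and 1 rose. The other members were spread to both sides of 0, with 23 of the 37 changes negative.

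Gsta1 and Gsta2 encode alpha-class enzymes that conjugate lipid peroxidation products, and as close relatives they may be read by the same probe in part. Their promoters are shown because they moved together. The windows lie at chr9:78230419-78230718 on the plus strand (Gsta1) and chr9:78347096-78347395 on the minus strand (Gsta2) of GRCm38.p6. Capitals mark the longest run the windows share, 29 bases. With that run in register and no gaps allowed, 151 of 297 positions (50.8%) were identical. Like stretches that lie a few bases out of register count as different, so this share can understate the likeness of the windows.
Gsta1: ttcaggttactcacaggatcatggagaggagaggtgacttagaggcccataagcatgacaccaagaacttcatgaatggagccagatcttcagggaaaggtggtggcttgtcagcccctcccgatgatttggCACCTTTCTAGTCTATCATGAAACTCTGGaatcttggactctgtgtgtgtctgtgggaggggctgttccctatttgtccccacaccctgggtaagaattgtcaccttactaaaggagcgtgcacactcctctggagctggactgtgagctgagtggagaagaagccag
Gsta2: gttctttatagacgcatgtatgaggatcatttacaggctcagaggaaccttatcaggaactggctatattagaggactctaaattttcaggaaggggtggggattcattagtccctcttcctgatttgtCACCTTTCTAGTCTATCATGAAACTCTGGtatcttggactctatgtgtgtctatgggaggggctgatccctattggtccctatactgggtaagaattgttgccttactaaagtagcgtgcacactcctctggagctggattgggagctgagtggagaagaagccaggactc

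Of 37 tested genes of amino acid breakdown and the urea cycle, 5 rose and none fell, against 0.887% higher and 2.12% lower of all genes. The median was 0.27, with 31 positive changes. Agxt, which clears glyoxylate in the peroxisome, was at 12.37, 12.42, 12.29 and 11.96 in HFDL and 11.72, 11.18, 11.59, 11.62 and 11.31 in SDL, a change of 0.78 (SE 0.18, adjusted p = 0.0196 by limma). The groups did not overlap. The urea cycle enzymes Asl and Ass1 rose by 0.73 and 0.55, the alanine transaminase Gpt2 by 0.64, and Gnmt, which consumes S-adenosylmethionine, by 0.55, Gnmt being named after its value was seen. In 2 of the 37 genes the HFDL mice all lay above the SDL mice, a share near the 2.84% of all genes. Ass1 is also a hepatocyte marker, and the 9 tested hepatocyte markers had a median of 0.43, above that of this list, and 0.04 under quantile normalization. The part of the hepatocyte markers' change in these values was not tested. Under median centring none passed and the median was 0.02, and under quantile normalization 2 passed and the median was 0.12. Without both mice numbered 11, 12 passed, and none did without SDL replicate 8, HFDL replicate 7, HFDL replicate 8 or HFDL replicate 9.

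Genes of lipid metabolism moved singly, beside 3.01% of all genes past the test. Lpl, the lipase that frees fatty acids from lipoproteins, had signals of 9.22, 9.14, 9.05 and 8.89 in HFDL and 10.41, 10.53, 10.61, 10.77 and 9.84 in SDL. The groups did not overlap, with SDL replicate 11 nearest to HFDL, and the change was -1.35 (SE 0.36, adjusted p = 0.0376 by limma). Apoa4, an apolipoprotein of triglyceride export, had 12.996, 12.46, 12.44 and 12.64 in HFDL and 10.68, 11.02, 10.89, 11.46 and 11.73 in SDL, a change of 1.48 (SE 0.36, adjusted p = 0.0233 by limma). Apof rose by 0.45, a call lost in 11 of 21 other settings. The median of 15 tested apolipoprotein and lipoprotein genes was 0.39, but 0.03 under quantile normalization and -0.001 under median centring. Of 25 genes of fatty acid synthesis only Elovl6, which lengthens palmitate, passed. It was at 9.67, 10.09, 10.23 and 10.55 in HFDL and 11.19, 11.72, 10.26, 11.02 and 11.05 in SDL, a change of -0.92 (SE 0.25, adjusted p = 0.0454 by limma), and SDL replicate 9 overlapped the HFDL mice. Of 34 genes of fatty acid oxidation, Decr2 of the peroxisome rose by 0.77 (adjusted p = 0.00976 by limma) and Acadm of the mitochondrion by 0.33 (adjusted p = 0.0443 by limma, -0.08 under median centring). None of 13 triglyceride synthesis genes, 20 cholesterol synthesis genes, 22 bile acid genes and 11 acyl-CoA thioesterases passed. Of 21 other settings, 8 lost the call of Apoa4, 12 that of Lpl and 13 that of Elovl6, most of them with 1 mouse left out. Acadm lost its call in 10 of the 21 settings and changed sign in 2.

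Of 25 tested genes that are higher in male than in female mouse liver, Keg1 and Gstp2 fell and Mup2 rose, with 21 negative changes and a median of -0.27. Of all genes, 2.12% fell and 0.887% rose. The list had 0 higher and 9 lower calls under median centring (median -0.61), 0 higher and 1 lower under quantile normalization, and 1 higher and 1 lower without both mice numbered 11. Of 21 other settings, 12 lost the call of Gstp2 and 14 that of Mup2. Keg1, an acyltransferase-like gene, was at 11.61, 11.25, 11.63 and 11.92 in HFDL and 12.86, 12.78, 13.09, 13.11 and 13.003 in SDL, a change of -1.37 (SE 0.29, adjusted p = 0.0139 by limma), with both groups tight. Mup2, a major urinary protein, rose by 0.63 (adjusted p = 0.0498 by limma) from a probe that may bind other Mup copies. Of 11 genes higher in female liver, Cyp2b9 alone passed. None of 18 genes of the growth hormone and IGF axis passed. Igfbp3 was nearest, at 7.33 to 7.43 in HFDL against a mean of 6.69 ± 0.24 in SDL (SD, n = 5), a difference of 0.71 (adjusted p = 0.0672 by limma), and Igfbp4 differed by 0.45 (adjusted p = 0.0905 by limma).

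Of 19 aldehyde and alcohol dehydrogenases, only Aldh1l1 passed. It is a folate enzyme, and it rose by 0.62 (adjusted p = 0.0271 by limma). Aldh2, the mitochondrial enzyme on which the alcohol reaction to DSF rests, named here for that role, was at 14.4 to 15.1 in HFDL and 14.1 to 14.7 in SDL (0.49, adjusted p = 0.0977 by limma). The autophagy-starting kinase Ulk1 rose by 0.75 (SE 0.14, adjusted p = 0.00652 by limma), with HFDL mice at 10.7 to 11.2 and SDL mice at 10.1 to 10.4. With Ctsl it was 1 of 2 genes past the test among 35 of the lysosome and autophagy, beside 3.01% of all genes. The epithelial adhesion genes Cdh1 (E-cadherin) and Cldn12 (a claudin) fell by 0.82 and 0.45 among 15 junction genes, beside 2.12% lower of all genes. Of 21 other settings, 4 lost the call of Cdh1 and 12 that of Cldn12. Single members also passed in other lists, with rises of Ldha (lactate dehydrogenase) by 0.51, F2 (prothrombin) by 0.42 and B2m (the light chain of class I MHC molecules) by 0.50, and a fall of the heat shock gene Dnajb1 by 0.66. The call was lost in 4 of 21 other settings for Ldha, 10 for F2, 14 for B2m and 12 for Dnajb1. In all, 18 of 38 lists held no gene past the test, as short lists can when 3.01% of all genes pass. These include oxidative phosphorylation (54 genes), cytosolic ribosomal proteins (44), extracellular matrix (35) and the circadian clock (17), and the medians of the 18 lists lay between -0.12 and 0.16. Under median centring 17 of the oxidative phosphorylation genes, 21 of the ribosomal protein genes and 2 of the clock genes were lower.

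**Figure D4:**
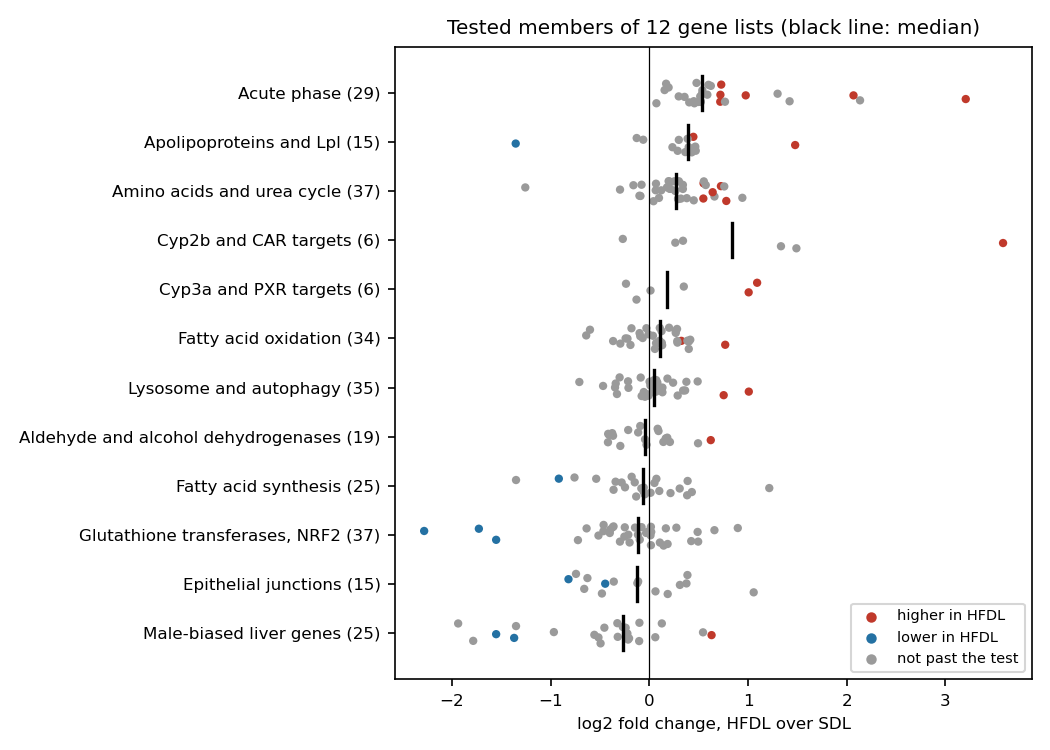
Log2 fold change of HFDL over SDL (horizontal) of each tested member of 12 gene lists, with the number tested in brackets, calls in red (higher) or blue (lower) and the list median as a black line. All 29 acute-phase genes lie right of 0, and 21 of the 25 male-biased genes lie left of it.

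None of 20 tested genes listed from those the paper names, as transcripts, proteins or background, passed in HFDL-SDL. Of all genes 3.01% passed, so a list of this size can hold none. The list is not complete, since Gsta2, which the paper names among rat liver proteins, is outside it and fell. The paper names these genes for other comparisons or as background, not for HFDL-SDL. For 8 of them the change was larger than its standard error. Apart from Cyp2b13 these were Cyp2e1, the ethanol-oxidising cytochrome, at 0.49 (SE 0.17, adjusted p = 0.0957 by limma), the hexokinase Hk2 at 0.50, the cytokine Il1b at 0.41, Igfbp2 at -0.38, the transcription factor Foxo1 at 0.32, the thiolase Acat1 at 0.26 and the tryptophan enzyme Ido2 at 0.21. The changes of the other 12, Cyp7b1, Hsd3b5, Avpr1a, Acot11, Cidec, Cidea, Sod2, Sirt1, Sirt3, Kynu, Ddit4 and Rela, lay within 1 standard error of 0.

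The change with diet at the low dose ran mostly the same way as without DSF and at the high dose. Of the 302 calls, 286 (94.7%) had the same sign in HFD-SD and 293 (97.0%) in HFDH-SDH, against 68.2% and 69.1% of all genes. Over all genes the log2 fold changes of HFDL-SDL had a Pearson's r of 0.61 with those of HFD-SD and 0.59 with those of HFDH-SDH, as a description across genes, which are not independent. HFD-SD held 93 calls (0.927%, with 49 or 0.488% higher and 44 or 0.439% lower) and HFDH-SDH held 682 (6.8%, with 259 or 2.58% higher and 423 or 4.22% lower) by the same limma fit. Called in HFDL-SDL and HFD-SD were 39 genes, 12.9% of the calls of the first and 41.9% of those of the second, 23 of them higher in both and 16 lower in both. Called in HFDL-SDL and HFDH-SDH were 112 genes, 37.1% of the calls of the first and 16.4% of those of the second, 34 of them higher in both and 78 lower in both. The median absolute change of the 302 genes was 0.60 in HFDL-SDL, by which they were chosen, 0.30 in HFD-SD and 0.41 in HFDH-SDH. Called in all 3 were 19 genes, 11 higher and 8 lower, among them Cyp3a11, Cyp3a25, Cyp2d26, Rgs16, Acadm, F2 and Tom1l2 (higher) and Elovl6 and Cdh1 (lower).

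Several genes passed in both HFDL-SDL and HFD-SD. Cyp2b9 changed by 3.58 in HFDL-SDL and by 4.04 in HFD-SD, Lcn2 by 3.21 and 3.16, Saa2 by 2.07 and 2.52, Rgs16 by 2.05 and 1.81, Txnip by 1.42 and 1.27, and Tom1l2 by 1.23 and 1.38. Serpina3n (0.98 and 1.27), Snx10 (1.06 and 1.17), Cyp3a11 (1.09 and 1.27) and Elovl6 (-0.92 and -1.36) also passed in both. Other genes had small changes with diet in the absence of DSF. Gsta1 changed by -2.28 in HFDL-SDL, by -2.83 in HFDH-SDH (adjusted p = 0.00841 by limma) and by 0.20 in HFD-SD. Gsta2 changed by -1.73, -1.69 (adjusted p = 0.0298 by limma) and 0.13 in the same comparisons, Spon2 by -1.62, -1.72 (adjusted p = 0.0318 by limma) and 0.19, and Lpl by -1.35, -2.11 (adjusted p = 0.00373 by limma) and -0.09. Apoa4 changed by 1.48, 1.36 (adjusted p = 0.0311 by limma) and 0.23. Slc39a4 changed by -1.97 in HFDL-SDL, by -0.49 in HFDH-SDH and by 0.19 in HFD-SD. Tested directly, no difference passed: the difference between HFDL-SDL and HFD-SD was -2.48 for Gsta1 (SE 0.76), -2.16 for Slc39a4 (SE 0.60) and -1.86 for Gsta2 (SE 0.60), each with an adjusted p of 0.999 by limma. Across all 10032 genes the difference between HFDL-SDL and HFD-SD gave 0 calls (0%), with 423 genes at an unadjusted p under 0.05 and a lowest adjusted p of 0.0807, and other settings of the fit gave 0 to 2. The difference between HFDL-SDL and HFDH-SDH gave 0 calls (0%), with 653 genes at an unadjusted p under 0.05, and 0 in all other settings. A diet effect that differs with DSF was therefore not detectable with 4 or 5 mice a group, which does not show that the effects are alike.

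**Figure D5:**
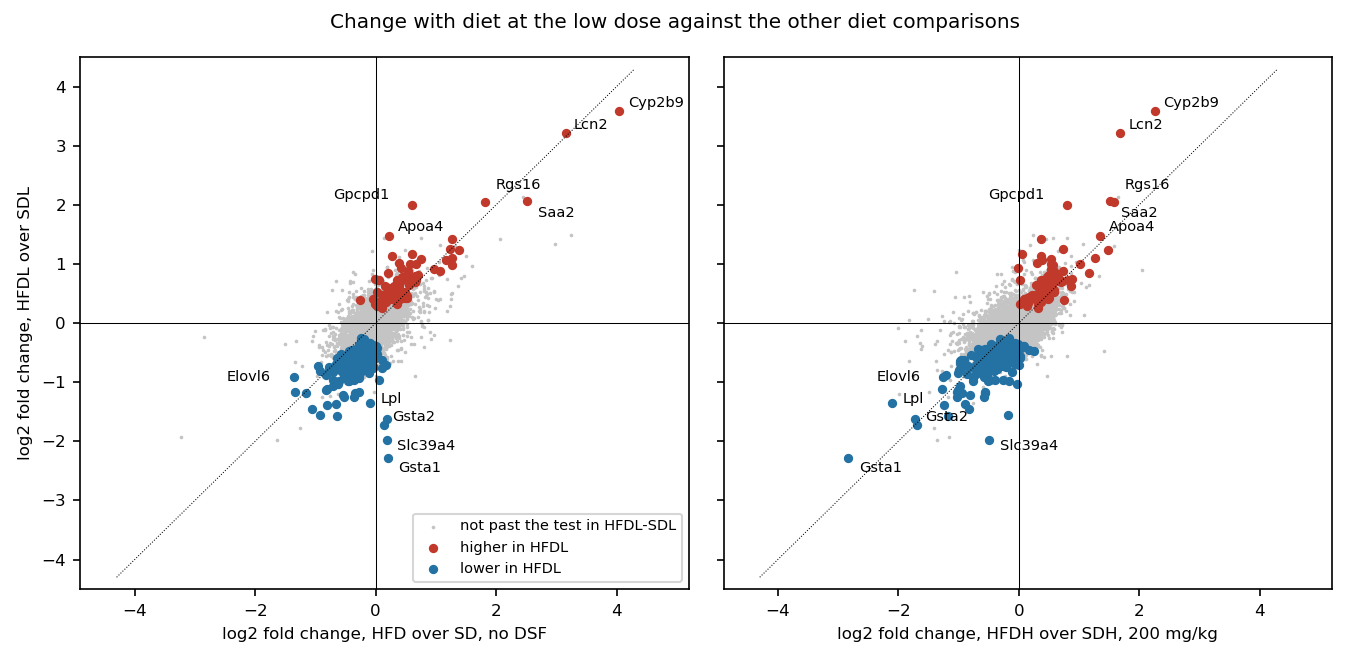
Log2 fold change of HFDL over SDL (vertical) against that of HFD over SD without DSF (left panel) and of HFDH over SDH at 200 mg/kg (right panel) for 10032 genes, with HFDL-SDL calls in red and blue and equality as a dotted line. Most calls lie in the quadrants of equal sign, while Gsta1, Gsta2, Slc39a4 and Lpl lie near 0 on the horizontal axis of the left panel.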

How the data were processed

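Liver total RNA of 30 mice was hybridised to Illumina MouseRef-8 v2 arrays, which the authors read with GenomeStudio 2011.1. The deposited intensity and detection p-value of each probe, on a linear scale with no normalization stated, were used for all main values. The authors also deposited a score, a Z transform of log10 intensities within arrays, used only as an alternative. Log2 intensities were centred and scaled per array to the mean spread of 1.88. Probes above background (detection p under 0.05) in at least 5 of the 27 mice with over 35% of probes above background were kept, and each gene was read from its brightest probe on average. Of 25697 probes, 23978 carry a gene symbol, and 23971 matched RefSeq, which changed 8 symbols. Groups were compared with limma 3.58.1 (R 4.3.3) in 1 fit of 6 groups, adjusted by Benjamini-Hochberg, and the model was tested on simulated data. Adjusted p-values of single genes come from this fit.

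Named genes were the 15 largest rises and falls past the test, a list of genes the paper names, up to 4 per described list, and the 10 largest called also in HFD-SD. Exceptions are marked in the text. Members, lists and the removal of low-signal mice were chosen with earlier results of these data known. Replicate numbers are those of the intensity columns and could not be matched to the labels' numbers. Same-numbered mice correlated at -0.17 (7), -0.03 (8), 0.24 (9) and 0.48 (11) in their deviations from group means. Mice of different numbers correlated at -0.37 (HFDL 8 with SDL 11) to 0.50 (HFDL 8 with SDL 7), so the numbers were not treated as pairs. Whether the mice numbered 11 share a source of variation was not tested. Alternatives changed the normalization, the filter, the mice and the weights. The number of arrays limits the precision.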

Additional observations from a re-analysis of the deposited data

Results flagged for a closer look

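Of 144 pairs of a named gene and a group, over 72 genes, 16 held a mouse far from the others of its group by Dixon's test, which chance does in about 1 of 20 pairs. HFDL replicate 11 was that mouse in 7 pairs and SDL replicate 11 in 4. In HFDL replicate 11 the normalised log2 signal of Rgs16 was 11.66 (nearest other HFDL mouse 13.35), of Ctsl 8.24 (8.90), of Aldh1l1 12.58 (13.08) and of Igfbp4 13.92 (14.31). In the same mouse it was 7.96 for Dclk3 (6.77), 10.89 for Csad (10.25) and 9.75 for Dapk2 (8.55). In all 7 genes this mouse lay on the SDL side of the other HFDL mice. In SDL replicate 11 the signal was 11.07 for Ell (nearest other SDL mouse 10.10), 9.64 for Spon2 (11.003), 8.84 for Sort1 (9.51) and 7.60 for Cyp2c55 (8.54). The other 5 were single mice: SDL replicate 8 for Gstp2 at 7.66 (8.94), SDL replicate 9 for Cyp2b13 at 6.09 (5.60), SDL replicate 7 for Il1b at 7.48 (7.02), SDL replicate 10 for Cdh1 at 9.07 (8.81) and HFDL replicate 7 for Igfbp3 at 7.33 (7.42).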

How the results depend on the processing

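The 302 calls of HFDL-SDL became 185 under quantile normalization, 197 under neqc and 1560 under median centring. They became 533 without SD replicate 2 and SDH replicate 17, 1806 with array weights, and 622 without both mice numbered 11, a setting chosen after seeing the data. By the study's criteria there were 736. With all 30 mice there were 0 (561 at an unadjusted p under 0.05), and 0 from the authors' Z scores (575). Leaving out 1 mouse gave 68 (without HFDL replicate 7) to 672 (without HFDL replicate 11). It gave 78 without HFDL replicate 9, 85 without HFDL replicate 8, 82 without SDL replicate 8 and 102 without SDL replicate 7. With the replicate block the fit gave 290, of which 199 were among the 302, and the numbers were not taken as pairs. The cause of these differences was not tested. All 302 genes kept their sign without both mice numbered 11, while 299 did under median centring and 273 with all 30 mice.

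The 0 calls of HFDL-SDL minus HFD-SD became 1 under median centring, 1 without SD replicate 2 and SDH replicate 17 and 2 with array weights, with a range of 0 to 1 when 1 mouse was left out. HFDL-SDL minus HFDH-SDH stayed at 0 in all settings run, including each mouse left out. Of 55 named genes past the test, 53 stayed so without both mice numbered 11, 37 under median centring, 28 under quantile normalization, 26 under neqc, 14 to 52 with 1 mouse left out (14 without HFDL replicate 7) and 0 with all 30 mice. In every setting of 27 mice or fewer 8 passed: Cyp3a25, Decr2, Gpcpd1, Paqr7, Rgs16, Sorbs2, Sort1 and Ulk1. Where every probe was tested, a gene was scored by its probe of lowest p. Sort1 therefore counts as passing there, although the changes of its 4 probes ran from -1.25 to -0.003.

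Directions turned in few settings. Under median centring Acadm was -0.076. With all 30 mice Cyp3a11 was -0.50, Cyp3a25 -0.27, Cyp2d26 -0.83, Foxo1 -0.28, Hp -1.04, Orm1 -0.63, Agxt -0.26, Asl -0.29, Gnmt -0.42, Acadm -0.37, Ulk1 -0.055 and Aldh1l1 -0.67. From the authors' Z scores, in Z units, Cyp3a11 was -0.28, Cyp3a25 -0.15, Cyp2d26 -0.46, Foxo1 -0.16, Hp -0.58, Orm1 -0.36, Agxt -0.14, Asl -0.16, Gnmt -0.23, Acadm -0.21, Ulk1 -0.03 and Aldh1l1 -0.37.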
